A study of Mus musculus with 7 samples.

Results

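Vmn2r genes, which encode the type 2 vomeronasal receptors, were taken by symbol. Every gene whose symbol starts with Vmn2r in the GENCODE M1 annotation of the mouse genome build mm9 was a member if it lay on chromosomes 1 to 19 and outside 65 to 68 Mb of chromosome 13. The rule gave 175 genes of the 34578 annotated genes in the same space. Of 180 Vmn2r genes in the whole annotation, 4 lay in the stretch of chromosome 13 and 1 on chromosome X. The 175 genes were 120 protein-coding genes, 52 pseudogenes and 3 processed transcripts, and 1 symbol, Vmn2r-ps38, named 2 genes.

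H3K9me3, trimethylation of lysine 9 of histone H3, was profiled in mouse cells by ChIP-seq, in which chromatin carrying the mark is precipitated and sequenced, with 4 H3K9me3 and 3 input libraries. Lists of called peaks from 2 of these were used here, 1 from untreated Setdb1 cKO iMEFs (WT) and 1 from the same cells given 4-hydroxytamoxifen (4OHT) for 4 days and harvested on day 7 (KO). These are immortalised embryonic fibroblasts that were recloned from single cells, and both groups carry the conditional allele of Setdb1, an H3K9 methyltransferase gene that 4OHT deletes. The remaining 5, H3K9me3 of fetal forebrain and input DNA, are not analysed here. Each group had 1 library, so there is no spread between replicates against which WT and KO could be compared, and nothing was tested. Loss of Setdb1 and exposure to 4OHT cannot be told apart in this design, and a peak list holds no measure of the deletion itself.

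Type 2 vomeronasal receptors are class C G protein-coupled receptors with a large extracellular domain at the amino terminus. Neurons in the basal layer of the vomeronasal organ use them, together with the G protein subunit encoded by Gnao1 and the channel encoded by Trpc2, to detect peptides and proteins that other animals secrete. Their genes lie in clusters of close copies, with the coding exons set apart by long introns. Fibroblasts are not known to use these receptors, and the lists measured a histone mark and not expression.

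The sequences under the peaks bear on every count that follows, because a read that fits many places cannot be placed with certainty. The 3 highest-scoring peaks of each list inside Vmn2r genes are shown, where the score is −log10 of the q-value. The highest of each list was chosen by a rule and the next 2 were added after the values were seen, to show the range of copy number. Each is the plus strand of mm9, 5′ to 3′, and capitals mark bases covered by at least 1 stretch of 31 bases (31-mer) that occurs once in the genome.
WT peak in Vmn2r118, chr17:55735042-55735323: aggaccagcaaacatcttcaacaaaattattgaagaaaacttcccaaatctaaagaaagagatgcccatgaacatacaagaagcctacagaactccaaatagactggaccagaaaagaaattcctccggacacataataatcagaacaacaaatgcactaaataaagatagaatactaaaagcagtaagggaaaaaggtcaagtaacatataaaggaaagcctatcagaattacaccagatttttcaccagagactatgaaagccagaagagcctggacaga
WT peak in Vmn2r90, chr17:17853868-17854166: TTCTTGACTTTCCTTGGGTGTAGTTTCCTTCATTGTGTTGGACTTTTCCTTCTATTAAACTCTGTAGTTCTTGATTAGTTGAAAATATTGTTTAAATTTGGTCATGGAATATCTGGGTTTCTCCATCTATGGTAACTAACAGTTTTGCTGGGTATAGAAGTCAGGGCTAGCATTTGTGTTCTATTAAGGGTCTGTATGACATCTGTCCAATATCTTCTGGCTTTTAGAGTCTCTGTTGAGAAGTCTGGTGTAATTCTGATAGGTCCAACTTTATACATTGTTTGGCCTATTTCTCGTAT
WT peak in Vmn2r118, chr17:55753079-55753187: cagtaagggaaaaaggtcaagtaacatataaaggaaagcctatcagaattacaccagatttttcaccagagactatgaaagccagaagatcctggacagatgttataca
KO peak in Vmn2r82, chr10:78827114-78827250: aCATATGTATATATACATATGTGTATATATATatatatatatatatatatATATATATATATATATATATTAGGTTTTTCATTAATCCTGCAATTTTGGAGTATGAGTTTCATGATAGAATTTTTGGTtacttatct
KO peak in Vmn2r80, chr10:78654971-78655037: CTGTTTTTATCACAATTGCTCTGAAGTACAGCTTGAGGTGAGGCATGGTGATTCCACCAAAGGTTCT
KO peak in Vmn2r81, chr10:78724415-78724561: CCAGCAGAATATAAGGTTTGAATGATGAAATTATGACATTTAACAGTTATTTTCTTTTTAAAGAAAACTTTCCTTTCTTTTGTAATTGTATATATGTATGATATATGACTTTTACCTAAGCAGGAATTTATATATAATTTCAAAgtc

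Both Vmn2r118 peaks shown are in lower case throughout, so that 0 of their bases lay in a 31-mer found once. They shared 100 aligned bases with 1 mismatch. The WT peak in Vmn2r90 is in capitals over all 299 bases, yet 92 of its bases aligned to the opposite strand of the longer Vmn2r118 peak at 79.3% identity. From general knowledge, the letters of the longer Vmn2r118 peak are those of the ORF1 coding region of mouse LINE-1 retrotransposons, and no repeat annotation was used here. The 3 KO peaks hold 109 of 137, 67 of 67 and 144 of 147 bases in such 31-mers, and the lower-case stretch inside the Vmn2r82 peak is a run of alternating A and T.

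Of the 175 Vmn2r genes, 24 carried at least 1 WT peak in the gene body, or 13.7% (Wilson 95% interval 9.39 to 19.6), against 6.62% of all genes. A KO peak lay in 15 genes, or 8.57% (5.26 to 13.7), against 1.71% of all genes. Both a WT and a KO peak lay in 8 genes, or 4.57% (2.33 to 8.76), against 1.20% of all genes. At least 1 peak of either list lay in 31 genes, or 17.7% (12.8 to 24.05), and 144 genes carried none. The share of all genes with a peak of either list was not computed. It cannot exceed 6.62% and 1.71% added together, which lies below the interval of 12.8 to 24.05. Intervals here and below cover counting error only, and members are neighbours and copies of each other and not independent draws.

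Among the 120 protein-coding members, 20 carried a WT peak and 14 a KO peak. The shares of all protein-coding genes were 9.03% for WT and 2.36% for KO. Of the 52 pseudogenes, with a median length of 0.93 kb, 4 carried a WT peak and 1 a KO peak. The share of all pseudogenes was not computed. The pseudogene with a KO peak, Vmn2r-ps11, shares that peak with protein-coding Vmn2r7, so the peak counts in both classes. None of the 3 processed transcripts carried a peak of either list.

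Members with a peak were long genes. The median member was 18.5 kb long, against 5.91 kb for all genes and 15.6 kb for protein-coding genes. All 31 genes with a peak were among the 88 members at or above the median member length, and 0 of the 87 shorter members carried one. Median length was 46.5 kb for the genes with both kinds of peak, 33.5 kb for those with WT peaks only, 25.3 kb for those with KO peaks only and 16.3 kb for those with none. Counts per Mb were therefore set beside counts of genes.

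The lists placed 47 WT and 16 KO peaks in Vmn2r gene bodies, which covered 3.63 Mb. This was 12.9 WT peaks per Mb (exact Poisson 95% interval 9.51 to 17.2), against 5.29 (5.15 to 5.43) over all gene bodies and 9.04 (8.92 to 9.16) over all sequence in the same space. For KO it was 4.40 per Mb (2.52 to 7.15), against 1.08 (1.01 to 1.14) and 1.52 (1.47 to 1.57). KO peaks in Vmn2r genes numbered 34.0% of the WT peaks there (19.4 to 59.6), whereas the whole KO list held 16.8% as many peaks as the WT list (16.2 to 17.4). Over all gene bodies the value was 20.4% (19.1 to 21.7), so that the interval for Vmn2r genes lay above that of all sequence and overlapped that of all genes.

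**Figure D1:**
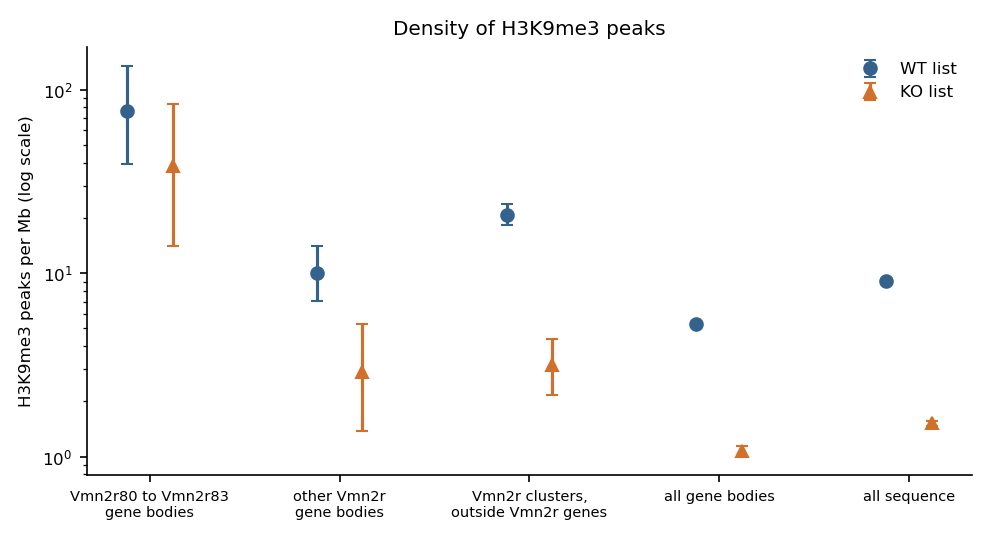
H3K9me3 peaks per Mb on a log axis for the WT list (circles) and the KO list (triangles), with exact Poisson 95% intervals as bars, in the Vmn2r80 to Vmn2r83 gene bodies, the other Vmn2r gene bodies, the rest of the Vmn2r clusters, all gene bodies and all sequence. Of these 5 categories Vmn2r80 to Vmn2r83 had the highest values in both lists, at 76.5 WT and 38.3 KO peaks per Mb, while 2 genes within the second category, Vmn2r18 and Vmn2r118, had higher WT values of their own.

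Between the Vmn2r genes of a cluster both lists had further peaks. The 10.8 Mb of cluster sequence outside members held 225 WT peaks, 20.8 per Mb (18.2 to 23.7), and 34 KO peaks, 3.14 per Mb (2.18 to 4.39). KO peaks there numbered 15.1% of WT peaks (10.6 to 21.6), with an interval that overlaps that inside the genes. WT peaks were thus denser outside than inside the genes, with intervals that do not overlap, while the KO densities had overlapping intervals.

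Not 1 of the 47 WT peaks in Vmn2r genes shared a base with a KO peak, which allows a share of up to 6.38% if a count of 0 allows up to 3 peaks. Over the whole WT list the share was 2.32% (2.13 to 2.53). Likewise 0 of the 16 KO peaks touched one of WT, which allows up to 18.8%, against 14.95% (13.8 to 16.2) of the whole KO list. The overlap in Vmn2r genes therefore was not detectably below that of the lists at these numbers. Within 1 kb of the other list lay 2 WT and 2 KO peaks, in Vmn2r80 and Vmn2r81, and the nearest pair, in Vmn2r81, was 0.277 kb apart. These were 4.26% (1.17 to 14.2) of the WT and 12.5% (3.50 to 36.02) of the KO peaks in Vmn2r genes, against 5.68% and 28.8% of the whole lists, values inside the intervals. The median distance to the other list was 92.2 kb for the WT peaks and 14.1 kb for the KO peaks. Such distances also depend on the length of the other list, 21617 peaks for WT and 3631 for KO. They were not computed for the whole lists.

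In height the Vmn2r peaks were like those of the whole lists. The median pileup, the number of fragments at the summit, was 10 in both lists, inside Vmn2r genes and over all sequence. The lowest pileup called, 9 fragments, was that of 20 of 47 WT peaks (42.6%) and of 7 of 16 KO peaks (43.8%), against 43.4% and 46.9% of the lists. The median fold enrichment over the local background was 4.63 in WT and 4.84 in KO, the same as in the lists. The highest pileup was 19 in each list, in Vmn2r118 for WT and in Vmn2r82 for KO, while the lists reached 140 and 130. The local background of the Vmn2r peaks went no higher than 2.63 fragments in WT and 2.1 in KO. Above 3 fragments lay 0 of them, which allows up to 6.38% of the WT and 18.8% of the KO peaks. The shares of the whole lists, 3.83% for WT and 16.6% for KO, lie inside these limits.

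The 175 genes fell into 19 clusters when genes less than 1 Mb apart were joined, of which 7 held 1 gene. WT peaks lay in genes of 10 clusters and KO peaks in genes of 6. Genes of 8 clusters, 53 genes in all, carried no peak. By chromosome, 9 of the 97 genes on chromosome 7 carried a WT peak and 1 a KO peak. Of the 32 genes on chromosome 17, 4 carried a WT peak and 7 a KO peak, and of the 8 on chromosome 10 the numbers were 4 and 4. Chromosome 17 thus held 6 of the 7 genes with KO peaks only and 3 of the 16 with WT peaks only, and chromosome 7 held 0 of the former and 8 of the latter. The shares of all genes with a peak were not computed by chromosome. These counts therefore cannot be told apart from differences in peak density between the chromosomes or in the length of their Vmn2r genes.

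**Figure D2:**
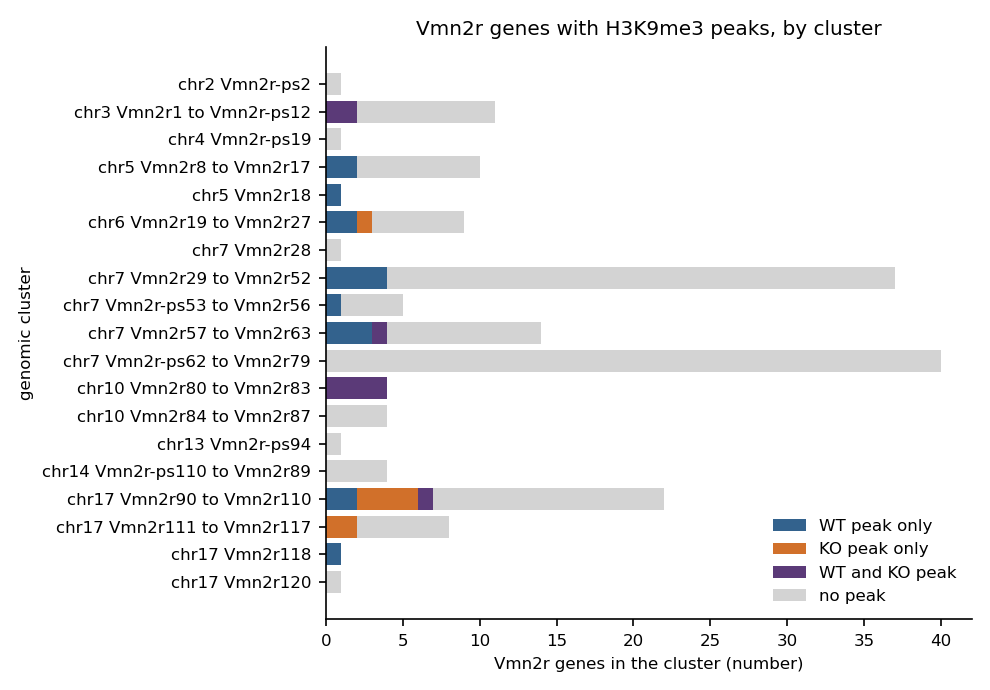
Number of Vmn2r genes in each of the 19 genomic clusters, from chromosome 2 to chromosome 17, split into genes with WT peaks only, KO peaks only, both and none. The cluster of Vmn2r80 to Vmn2r83 on chromosome 10 is the one among those of more than 1 gene in which every gene carries both, and the cluster of 40 genes on chromosome 7 has no gene with a peak.

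The cluster of Vmn2r80 to Vmn2r83, chr10:78611542-78954899, held more KO peaks in its genes than any other. Its 4 genes, all protein-coding and on the plus strand, held 12 of the 47 WT and 6 of the 16 KO peaks. Per Mb of gene body this was 76.5 WT peaks (39.5 to 134) and 38.3 KO peaks (14.04 to 83.3), against 10.1 (7.01 to 14.002) and 2.88 (1.38 to 5.29) over the other Vmn2r genes. The cluster was singled out after these values were seen. The genes Vmn2r18 and Vmn2r118, each alone in its cluster with 3 WT peaks, had higher WT densities, 119 and 92.8 per Mb, and the small spans of 2 clusters on chromosomes 10 and 14, at 35.7 and 83.3 per Mb, had higher KO densities than the 29.1 per Mb of this span. Without it 20 genes with 35 WT peaks and 11 genes with 10 KO peaks were left, and KO peaks numbered 28.6% of WT peaks (14.3 to 56.9).

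Vmn2r80 (chr10:78611542-78657757) carried 2 WT peaks, with pileups of 10 and 9 fragments, and 3 KO peaks, with pileups of 9, 9 and 11. Its second WT peak and its second KO peak lay 0.889 kb apart in the last part of the gene. Vmn2r81 (chr10:78710522-78757280) carried 5 WT peaks, with pileups of 11, 12, 12, 10 and 12, and 1 KO peak with a pileup of 10. Its WT peaks included the widest in any Vmn2r gene, 574 bp. In both genes peaks of the lists lay side by side without touching.

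Vmn2r82 (chr10:78819321-78859943) carried 2 WT peaks, with pileups of 11 and 9, and the highest KO peak of any Vmn2r gene, with a pileup of 19, a fold enrichment of 8.34 and a score of 11.5. That KO peak lay 8.40 kb from the nearest WT peak. Vmn2r83 (chr10:78931688-78954899) carried 3 WT peaks, with pileups of 11, 12 and 9, and 1 KO peak with a pileup of 9. The WT peak with the pileup of 9 was the only WT peak in a Vmn2r gene that overlapped an exon.

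Between these 4 genes lay 17 further WT and 4 further KO peaks, so that the span of 0.343 Mb held 29 WT and 10 KO peaks. The highest WT pileups between the genes were 15 fragments, at 3 peaks. At 1 place the lists overlapped. A WT peak at chr10:78921269-78921926, with a pileup of 15 and a fold enrichment of 5.37, covered a KO peak at chr10:78921832-78921896 with a pileup of 9 and a fold enrichment of 4.78. This place lies between Vmn2r82 and Vmn2r83, in no annotated gene.

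**Figure D3:**
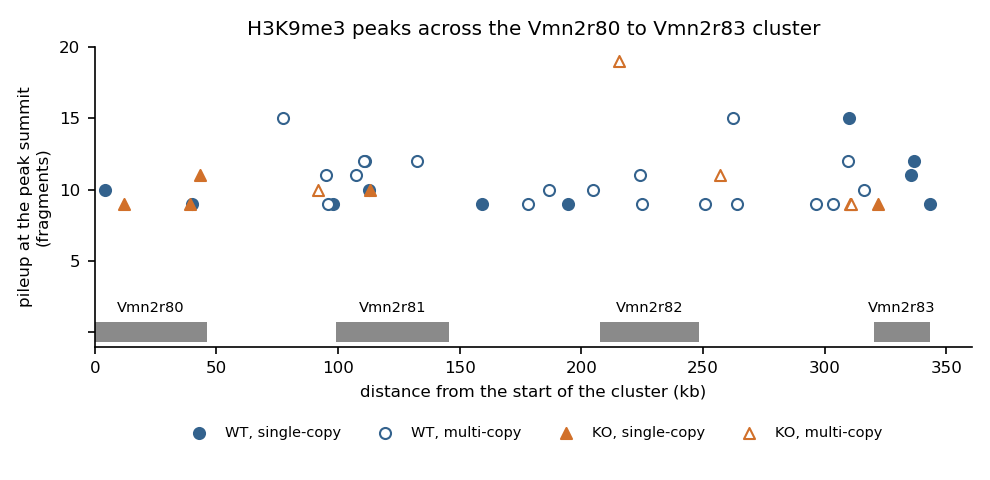
Pileup of each H3K9me3 peak, in fragments, against the distance in kb from the start of the Vmn2r80 to Vmn2r83 cluster, with the gene bodies as grey bars, WT peaks as circles and KO peaks as triangles, filled where the median 31-mer of the peak occurs once in mm9. Peaks of both lists run along the whole cluster at pileups between 9 and 15, and the KO peak in Vmn2r82 stands above them at 19.

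Outside that cluster, 4 genes carried peaks of both lists. Vmn2r7 (chr3:64494582-64648687), one of the widely co-expressed family C receptors, and the pseudogene Vmn2r-ps11 overlap on the same strand of chromosome 3 and share 5 WT peaks, with pileups of 12, 9, 9, 12 and 12, and 1 KO peak with a pileup of 13. The KO peak lay 20.4 kb from the nearest WT peak. Vmn2r1 to Vmn2r6, which lie beside Vmn2r7, carried none. Vmn2r90 (chr17:17840905-17871131) carried 2 WT peaks, with pileups of 13 and 9, and 1 KO peak with a pileup of 10. That KO peak was the only one in a Vmn2r gene that overlapped an exon. Vmn2r57 (chr7:48655102-48704011) carried 1 WT peak with a pileup of 9 and 1 KO peak with a pileup of 10, 11.9 kb apart, both also inside the overlapping gene Gm20449.

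KO peaks alone lay in 7 genes, each with 1 peak. On chromosome 17 these were Vmn2r94 (pileup 9), Vmn2r98 (9), Vmn2r104 (11), Vmn2r108 (9), Vmn2r111 (10) and Vmn2r114 (12). The seventh was Vmn2r22 on chromosome 6, with a pileup of 9. In the 6 genes on chromosome 17 the nearest WT peak was between 16.2 kb, at Vmn2r104, and 34.3 kb, at Vmn2r111, so each of these KO peaks lay apart from the WT peaks around it. Scores ran from 2.78 at Vmn2r114 to 3.70 at Vmn2r104, against a median of 2.96 over the KO list.

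WT peaks alone lay in 16 genes. Vmn2r118 (chr17:55731639-55763970) carried 3, with pileups of 19, 9 and 13, and the first of these had the highest score in any Vmn2r gene, 12.3, with a fold enrichment of 9.26. Vmn2r18 on chromosome 5 also carried 3, with pileups of 10, 9 and 9. Vmn2r13, Vmn2r27, Vmn2r35, Vmn2r60, Vmn2r91 and the pseudogenes Vmn2r-ps45 and Vmn2r-ps49 carried 2 each, with pileups between 9 and 11. The remaining 7 genes carried 1 each. Among these, Vmn2r58 had a pileup of 14 and the highest local background in a Vmn2r gene, 2.63 fragments, Vmn2r99 and Vmn2r38 had a pileup of 11, and Vmn2r26, a receptor known for responses to MHC-binding peptides, had a pileup of 9. Vmn2r17, Vmn2r56 and Vmn2r-ps56 also stood at 9 fragments.

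**Figure D4:**
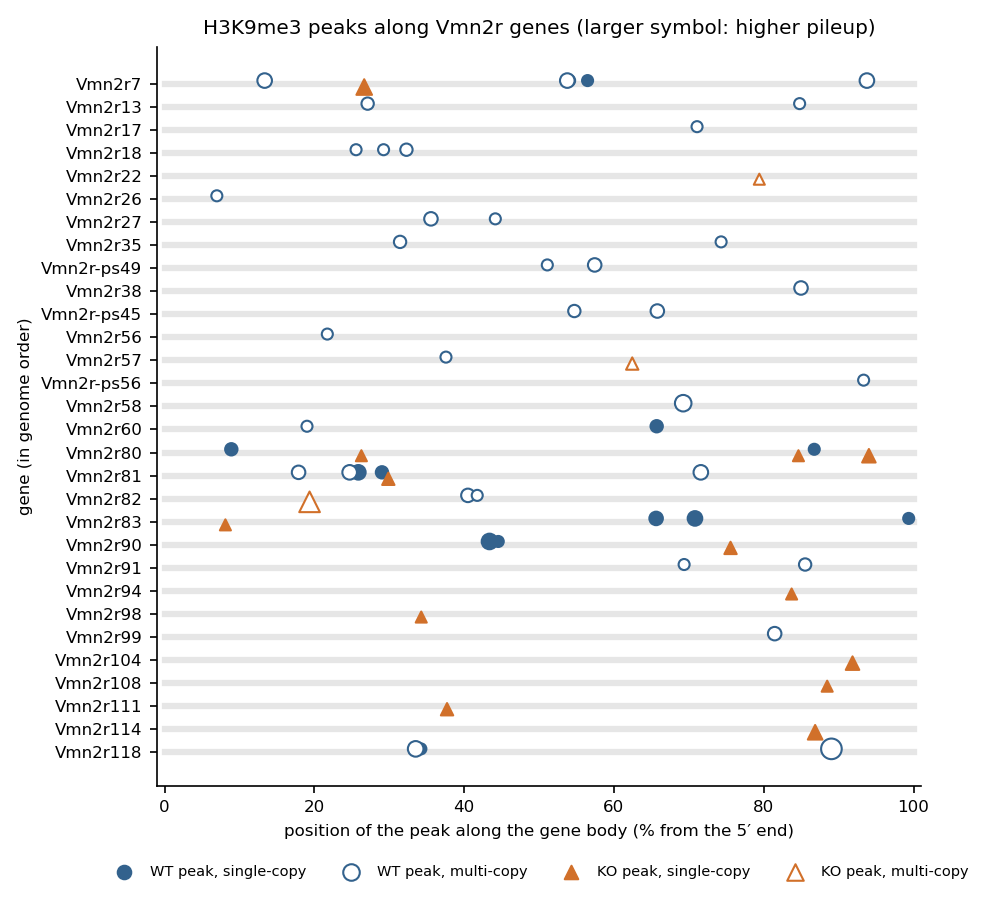
Position of every H3K9me3 peak along its Vmn2r gene, in % of the gene body from its 5′ end, for WT (circles) and KO (triangles), larger for a higher pileup and filled where the median 31-mer of the peak occurs once in mm9. Peaks shared by Vmn2r7 and Vmn2r-ps11 are drawn at Vmn2r7, and open symbols mark 35 WT peaks but only 3 KO peaks, those in Vmn2r22, Vmn2r57 and Vmn2r82.

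Along the genes the peaks were spread over introns. Of the 47 WT peaks 14 lay in the 5′ part of the gene, 18 in the middle and 15 in the 3′ part, with the gene cut into 3 parts of equal length. For the 16 KO peaks the counts were 5, 3 and 8. Of these peaks inside gene bodies, 0 in either list touched the window from 2 kb before to 0.5 kb after the gene's start. In each list 1 peak touched an exon. Peaks that lay wholly before a gene were not counted here, though some fell in that window. Examples are the WT peak chr10:78709532-78709677 before Vmn2r81 and the KO peak chr10:129831378-129831454 before Vmn2r84. Of the 47 WT peaks 15, or 31.9%, had another WT peak within 1 kb, against 32.96% of the whole WT list. Of the 16 KO peaks 0 had a KO neighbour that close, which allows up to 18.8%, against 16.8% of the whole KO list.

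In the clusters described next, both on chromosome 17, most peaks lay outside Vmn2r genes, as did most of the sequence. The cluster of 22 genes from Vmn2r90 to Vmn2r110 on chromosome 17 held 52 WT peaks, 5 of them in Vmn2r genes, and 13 KO peaks, 5 of them in Vmn2r genes. Vmn2r gene bodies made up 0.621 Mb of its 2.89 Mb. The neighbouring cluster of 8 genes, Vmn2r111 to Vmn2r117, held 56 WT peaks of which 0 lay in a Vmn2r gene, at 60.1 per Mb, and 6 KO peaks of which 2 did. Here Vmn2r gene bodies made up 0.137 of 0.932 Mb. This neighbour includes Vmn2r116, the receptor for the tear peptide ESP1, which carried no peak of either list. Of the 56 WT peaks, 4 lay in Zfp945, 4 in Zfp40 and 1 in Gm9805, where Zfp symbols stand for zinc-finger genes, and the rest lay in no annotated gene.

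On chromosome 7 WT peaks outnumbered KO peaks, as in the whole lists, where the KO number was 16.8% of WT (16.2 to 17.4). No interval was computed for the ratios of single clusters. The cluster of 37 genes from Vmn2r29 to Vmn2r52 held 32 WT peaks, 7 of them in 4 Vmn2r genes, and 0 KO peaks. The cluster of 40 genes from Vmn2r-ps62 to Vmn2r79 held 20 WT and 2 KO peaks, all outside Vmn2r genes. The cluster of 14 genes from Vmn2r57 to Vmn2r63 held 31 WT peaks and 1 KO peak, that in Vmn2r57.

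KO peaks outnumbered WT peaks in the spans of 2 small clusters, chosen after their counts were seen. The cluster of Vmn2r84 to Vmn2r87 on chromosome 10 held 4 KO and 1 WT peak, and that of Vmn2r88 and Vmn2r89 on chromosome 14 held 7 KO and 5 WT peaks. In both clusters 0 Vmn2r genes carried a peak. All 12 peaks of the chromosome 14 cluster lay in the gene model Gm7247, and at 1 place a WT peak, chr14:52010060-52010436 with a pileup of 10, overlapped a KO peak, chr14:52009865-52010402 with a pileup of 9. Over all 19 clusters this place and that beside Vmn2r83 were the only ones where a WT and a KO peak overlapped.

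The lists differed in the kind of sequence they marked inside Vmn2r genes. A peak is called single-copy here if the median of its 31-mers occurs once in mm9. This held for 12 of 47 WT peaks, 25.5% (15.3 to 39.5), and for 13 of 16 KO peaks, 81.2% (56.99 to 93.4). The intervals do not overlap. In the whole lists the shares were 30.01% (29.4 to 30.6) and 58.2% (56.6 to 59.8), so the lists differed in the same direction outside Vmn2r genes. The median copy number was 796 for WT and 1 for KO peaks in Vmn2r genes, and 23 WT peaks (48.9%, 35.3 to 62.8) but 1 KO peak (6.25%, 1.11 to 28.3) exceeded 1000 copies.

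**Figure D5:**
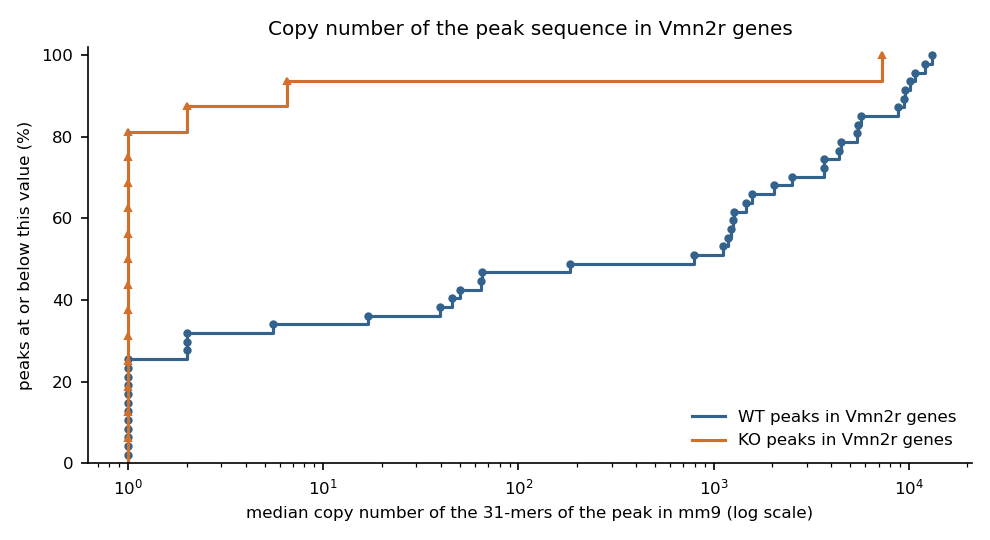
Share of H3K9me3 peaks in Vmn2r genes, in %, whose sequence has at most the copy number on the log x axis, the median number of occurrences of the peak's 31-mers in mm9, for the WT list (circles) and the KO list (triangles). The KO curve starts at 13 of 16 peaks with a copy number of 1, and the WT curve at 12 of 47, climbing to 13128 copies.

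With single-copy peaks alone the lists were close in number. In Vmn2r genes 12 WT peaks (3.30 per Mb, 1.71 to 5.77) stood against 13 KO peaks (3.58 per Mb, 1.91 to 6.12), a KO number of 108% of WT (50.4 to 233). Over all sequence the single-copy value was 32.6% (31.01 to 34.2) and over all gene bodies 30.04% (27.4 to 32.9), both below the interval of the Vmn2r genes. Among peaks of higher copy number the order was the other way, with 35 WT and 3 KO peaks in Vmn2r genes, or 8.57% (2.80 to 26.3), against 10.03% (9.52 to 10.6) over all sequence. Outside Vmn2r80 to Vmn2r83 single-copy peaks numbered 5 in WT and 8 in KO, or 160% (55.1 to 465).

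By gene, 8 Vmn2r genes held a single-copy WT peak, 4.57% (2.33 to 8.76) against 3.40% of all genes. These were Vmn2r7 with Vmn2r-ps11, Vmn2r60, Vmn2r80, Vmn2r81, Vmn2r83, Vmn2r90 and Vmn2r118. A single-copy KO peak lay in 12 genes, 6.86% (3.97 to 11.6) against 1.18% of all genes. They were the 15 genes with a KO peak other than Vmn2r22, Vmn2r57 and Vmn2r82. The share with a single-copy WT peak had an interval that takes in the share of all genes, and the share with a single-copy KO peak did not.

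Many WT peaks in Vmn2r genes had copies in other Vmn2r genes. With a match defined as at least 90% identity over at least 80% of the peak, 37 of 47 WT peaks matched sequence in at least 1 other Vmn2r gene, with a median of 15 genes and at most 67. For KO 8 of 16 peaks had a match, with a median of 0.5 genes and at most 52, the last at Vmn2r22. Among single-copy peaks 6 of 12 WT and 6 of 13 KO peaks had one. A match in another receptor gene was thus found for peaks of both lists. The share with a match was not computed for peaks outside Vmn2r genes. Of the 47 WT peaks, 23 exceeded 1000 copies in mm9. Copies within the gene family were not separated from sequence repeated across the genome. How far the random placement of reads among such copies moved peaks into or out of Vmn2r genes was not tested.

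The sequence of the longer Vmn2r118 peak shown above recurred under other peaks. Alignments of at least 50 bases to it were found in 8 of the 47 WT peaks in Vmn2r genes (itself included), lying in 6 genes, and in 0 of the 16 KO peaks. Over the whole lists they were found in 2874 WT peaks, 13.3%, and in 80 KO peaks, 2.203%. The share of the WT peaks in Vmn2r genes was 17.02%. The KO sequence from Vmn2r81 aligned to 1 other KO peak, the one in Vmn2r80 at chr10:78623607-78623760, over 121 bases at 82.6% identity, and to 0 WT peaks. These are neighbouring receptor genes, and both peaks were single-copy. The other single-copy peaks printed had many relatives. The WT sequence from Vmn2r90 aligned to 2733 WT peaks, 12.6% of the list, and to 72 KO peaks, and the KO sequence from Vmn2r80 aligned to 177 WT and 24 KO peaks and matched 41 other Vmn2r genes. Single-copy thus means exact 31-mers found once, and not that similar sequence is absent elsewhere.

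The lists differ in length, so their Vmn2r counts also depend on where they are limited. The 3631 highest-scoring WT peaks, as many as the KO list held in the same space, placed 7 peaks in 6 Vmn2r genes, 3.43%, against 1.92% of all genes. The genes were Vmn2r7 with Vmn2r-ps11, Vmn2r81, Vmn2r83, Vmn2r90 and Vmn2r118. These WT peaks had scores of at least 4.27, whereas the KO list, with 16 peaks in 15 genes, kept every score. With that limit on score in both lists, peaks at the limit included, 10 WT peaks in 9 genes and 2 KO peaks, in Vmn2r80 and Vmn2r82, were left. Of the whole KO list, 599 of 3631 peaks reached that score, and the share of all genes at this limit was not computed. Both limits were added after the counts were seen.

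Other receptor genes of the chemosensory system rarely carried a peak, but they are short, and per Mb they were not set apart from all gene bodies. Of 256 Vmn1r genes, which encode the type 1 vomeronasal receptors and have short gene bodies with a median of 0.927 kb, 1 carried a WT peak (Vmn1r139) and 0 a KO peak, which allows up to 1.17%. Of 1242 Olfr genes, the olfactory receptors, with a median of 0.957 kb, 5 carried a WT peak and 4 a KO peak. The shares with a WT peak were 0.391% of Vmn1r and 0.403% of Olfr genes, against 6.62% of all genes. With a KO peak they were 0% and 0.322%, against 1.71% of all genes, whose median length was 5.91 kb. Per Mb of gene body, Vmn1r genes had 1.66 WT (0.042 to 9.25) and 0 KO peaks (0 to 6.12). Olfr genes had 3.39 WT (1.36 to 6.98) and 1.94 KO peaks (0.528 to 4.96). The WT intervals lie below that of Vmn2r genes, and the KO intervals overlap that of Vmn2r genes. In both groups the intervals take in the values of all gene bodies, 5.29 WT and 1.08 KO peaks per Mb.

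Of 42 Mup genes, which encode major urinary proteins that vomeronasal neurons detect, 5 carried a WT peak and Mup9 carried a KO peak. These were 11.9% (5.19 to 25) and 2.38% (0.42 to 12.3), intervals that take in the 6.62% and 1.71% of all genes. There were 11 WT peaks in all or 28.5 per Mb (14.2 to 51), an interval that overlaps that of Vmn2r genes. No gene of 4 Fpr-rs receptors, 9 H2-M genes co-expressed with type 2 receptors and 6 signalling genes (Trpc2, Gnao1, Gnai2, Gng8, B2m and Omp) carried a peak of either list. These counts of 0 allow shares of up to 75%, 33.3% and 50%, so they say little. No annotated symbol matched the Esp genes. In none of the groups named, Vmn2r genes included, did a WT peak overlap a KO peak inside a gene body. Over the whole WT list 2.32% of peaks did so. The Vmn1r, Olfr and Mup genes held 1, 7 and 11 WT peaks, so these counts of 0 also say little.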

How the data were processed

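H3K9me3 ChIP-seq used chromatin digested with micrococcal nuclease and, per the labels, antibody ab8898. The authors aligned the single-end reads (mm9, Bowtie2 2.2.3), put a read that fitted several places at 1 of them at random, and took out duplicates with Picard. Per the file headers, MACS2 2.1.0.20140616 called each list from 1 library, and its options are not given in the sources used here. The deposited pileup is fragment coverage (signal) at the summit, the deposited fold enrichment is a ratio to local background, and the deposited −log10 p-value and −log10 q-value belong to each peak. The local background was recovered as (pileup + 1) / fold − 1. The lists hold no read totals, and depth was not computed here. The lowest pileup in both lists was 9.

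The members, lists and clusters were chosen with earlier results of these data known. A gene carried a peak if they shared at least 1 bp, with starts counted from 1. Named genes were all those with a KO peak, those with 2 or more WT peaks and, of the genes with WT peaks only, the 10 with the highest-scoring peak, and the others are given for completeness. Symbols that start with Mup were limited to those with a digit or hyphen next. Copy numbers counted 31-mers on both strands of chromosomes 1 to 19, X, Y and M, and sequences were aligned with blastn 2.17.0 at an E-value limit of 1e-05. Shares carry Wilson and densities exact Poisson 95% intervals, and a count of 0 is given the limit of 3 counts. Ratios of KO to WT numbers have intervals converted from Wilson limits of KO among all peaks counted. The code that finds overlaps between genomic ranges was tested on simulated ranges, and the code for confidence intervals was not. Python 3.11.15, numpy 2.4.6, pandas 2.3.3, scipy 1.17.1 and numba 0.67.0 were used.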

Additional observations from a re-analysis of the deposited data

How the results depend on the processing

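The alternatives covered the peak threshold, the overlap rule, the gene set, merging of near peaks, the start position, copy number and list length, and 25 of 57 recomputed counts moved by over 1.5 times. Of the other 32, 10 are the count of overlapping WT peaks, which stayed at 0. A lower limit on scores at the WT median, 3.04, left 7 genes with KO peaks, 24 WT and 6 KO peaks. A pileup of at least 15 left 1 gene and 1 peak in each list, so that the Vmn2r counts rest on peaks of low pileup. Gene bodies extended by 10 kb gave 58 genes with WT and 29 with KO peaks, 116 WT and 42 KO peaks, and 2 overlapping WT peaks. Whole cluster spans gave 272 WT and 50 KO peaks, and 2 overlapping. Single-copy peaks alone left 8 genes with 12 WT peaks. A KO peak within 1 kb counted as shared gave 2. The next 3 alternatives were added after the data were seen. Without Vmn2r80 to Vmn2r83, 10 KO peaks were left, and the WT list shortened to the length of the KO list gave 6 genes and 7 WT peaks. With its lowest score, 4.27, as the limit in both lists, 9 genes with 10 WT peaks and 2 genes with 2 KO peaks were left. The same limit left 599 peaks of the whole KO list. An overlap of at least 50% of the peak, protein-coding members alone, merging within 1 kb and starts counted from 0 moved no count by over 1.5 times. No paired analysis was possible because there was 1 library per group, and for the same reason no replicate could be left out. Counts of called peaks carry no measure of the mark below the caller's threshold.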
